A study of Mus musculus with 15 samples.

Results

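Collagen chain genes were examined in the aortas of male mice that received aldosterone and high salt (Aldo-salt) with intact, removed or replaced androgen. The members were all symbols in the 15 deposited count files made of Col, a number, the letter a and a number, which gave 44 of the 24982 gene symbols. Fold changes were computed for the 36 members with 10 or more counts in at least 5 libraries, among 14191 genes tested. The mice were wild-type male C57BL/6 mice by the labels (C57BL/6J in the study's methods), 10 months old, and poly(A) RNA of each whole aorta was sequenced as 1 library. All 15 mice received aldosterone at 200 µg/kg per day by minipump and drank 0.9% NaCl with 0.2% KCl. The treatment ran for 7 days from 2 weeks after surgery. The control group (n = 5) had a sham operation. The orchiectomized group (n = 5) had lost the testes, the main source of circulating androgen. The third group (n = 5) was orchiectomized and carried a pellet of dihydrotestosterone (DHT), a potent androgen that is not converted to estrogen. Since no group went without Aldo-salt, all levels below are levels under Aldo-salt.

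Collagens are trimers of chains wound into a triple helix, which requires glycine at the first position of each Gly-X-Y triplet. The fibrillar chains form the cross-banded fibers that give the aortic wall its tensile strength, and type I and type III are the main ones in media and adventitia. Fibril-associated chains decorate fibril surfaces, the type IV network underlies endothelium and surrounds each smooth muscle cell, type VI chains form beaded filaments, and the short-chain type VIII network is made by vascular cells during remodeling. Multiplexins are basement membrane proteins whose C-terminal fragments include endostatin, and the transmembrane collagens sit in the cell surface.

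The classes differ in the length of the uninterrupted triplet repeat, which was read from the coding sequence of the longest protein-coding transcript of each gene (GENCODE M21, mm10). The longest run of GGN codons at every triplet start, which is the glycine position, was 216 to 344 triplets in the 11 fibrillar genes, 32 to 113 in the 9 fibril-associated genes, 39 to 66 in the 6 type IV genes and 60 to 61 in the 3 short-chain genes. The fibrillar genes had 21 to 33 coding exons of exactly 54 bases, which is 6 triplets, and the short-chain genes had none. The following 54-base stretches, written 5′ to 3′ on the coding strand with the first codon of each triplet, GGN for glycine, in capitals, show the repeat in the chains on which the results turn.
Col1a1 coding exon 8 of 51, chr11:94939904-94939957 (+): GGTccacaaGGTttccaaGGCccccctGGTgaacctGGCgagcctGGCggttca
Col3a1 coding exon 6 of 51, chr1:45325360-45325413 (+): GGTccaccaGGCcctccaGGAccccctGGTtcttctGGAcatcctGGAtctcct
Col14a1 coding exon 36 of 47, chr15:55467960-55468013 (+): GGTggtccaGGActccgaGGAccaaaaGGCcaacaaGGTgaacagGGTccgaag
Col12a1 coding exon 54 of 65, chr9:79614349-79614402 (-): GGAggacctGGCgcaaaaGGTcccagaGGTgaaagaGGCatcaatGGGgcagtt
Col16a1 coding exon 33 of 69, chr4:130067219-130067272 (+): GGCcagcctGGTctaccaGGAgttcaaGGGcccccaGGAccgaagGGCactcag
Col8a1 coding exon 2 of 2, chr16:57628039-57628092 (-): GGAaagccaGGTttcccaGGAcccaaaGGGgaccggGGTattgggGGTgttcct
Col2a1 coding exon 6 of 54, chr15:97998545-97998598 (-): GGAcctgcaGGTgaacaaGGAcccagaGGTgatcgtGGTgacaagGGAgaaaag
All but the *Col8a1* stretch are whole exons. The *Col8a1* stretch is the start of its longest run, inside the second of its 2 coding exons. The longest run was 32 triplets in *Col14a1* and in *Col12a1* and 52 in *Col16a1*, against 338 in *Col1a1* and 344 in *Col3a1*.

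The libraries held between 8268957 and 13816864 gene reads each. Levels are CPM, counts scaled to a common total of gene reads per library with the TMM factors of edgeR. Orchiectomized replicate 2 stood apart from the other libraries. It had a median correlation with its own group of 0.906, against 0.957 to 0.976 in the other 14 libraries, and among the 36 tested collagen genes it lay above all others for 9 (25%, against 22.8% of all genes tested) and below all others for 10 (27.8%, against 16.5%). For 6 of the 36 (16.7%) it was more than 3-fold above the next library, against 373 of all 14191 genes tested (2.63%), and 4 untested collagen genes were as far above. It was the highest library for 6 of 8 Schwann cell, 6 of 9 T and B cell, 4 of 7 mesothelial, 4 of 8 endothelial, 4 of 10 fibroblast, 3 of 8 chondrocyte and 3 of 8 macrophage markers. It was also the highest for 1 of 8 each of the skeletal muscle, adipocyte and smooth muscle markers (*Des* for the latter), and the lowest for the other 7 smooth muscle markers. Of the chondrocyte markers, *Cnmd* was at 18.7 CPM (1.51 at most elsewhere) and *Matn1* at 4.07 CPM (0.257 at most elsewhere), and *Acan*, *Comp* and *Hapln1* were not highest there. *Krt19*, a keratin in the mesothelial list, was at 209 CPM (10.5 at most elsewhere), and *Upk3b*, *Lrrn4* and *Bnc1* of that list were not highest there. Collagen calls that it moved are given with and without it. In whole aortas, fewer cells of a type and less RNA per cell cannot be told apart.

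Collagen genes took 0.839% to 1.76% of all gene reads per library. Per kilobase of transcript and averaged over the 15 libraries, the highest levels were those of *Col18a1* (352 CPM per kb), the endostatin precursor, *Col3a1* (325), *Col1a2* (323) and *Col1a1* (217), the chains of types III and I. The libraries of *Col18a1*, *Col3a1* and *Col1a2* overlapped, so these genes have no clear order. The type IV chains *Col4a1* (178 CPM per kb) and *Col4a2* (135) and the type VI chains *Col6a2* (125) and *Col6a1* (97.5) followed. *Col14a1* (33.4 CPM per kb) and *Col16a1* (11.6) led the fibril-associated chains, and *Col12a1* (2.37) was at about the level of *Col8a2* (2.44), below *Col8a1* (5.93). Below 1 CPM per kb lay 17 of the 44 genes, among them *Col2a1* (0.554) and *Col11a1* (0.167), the fibrillar chains typical of cartilage.

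**Figure D1:**
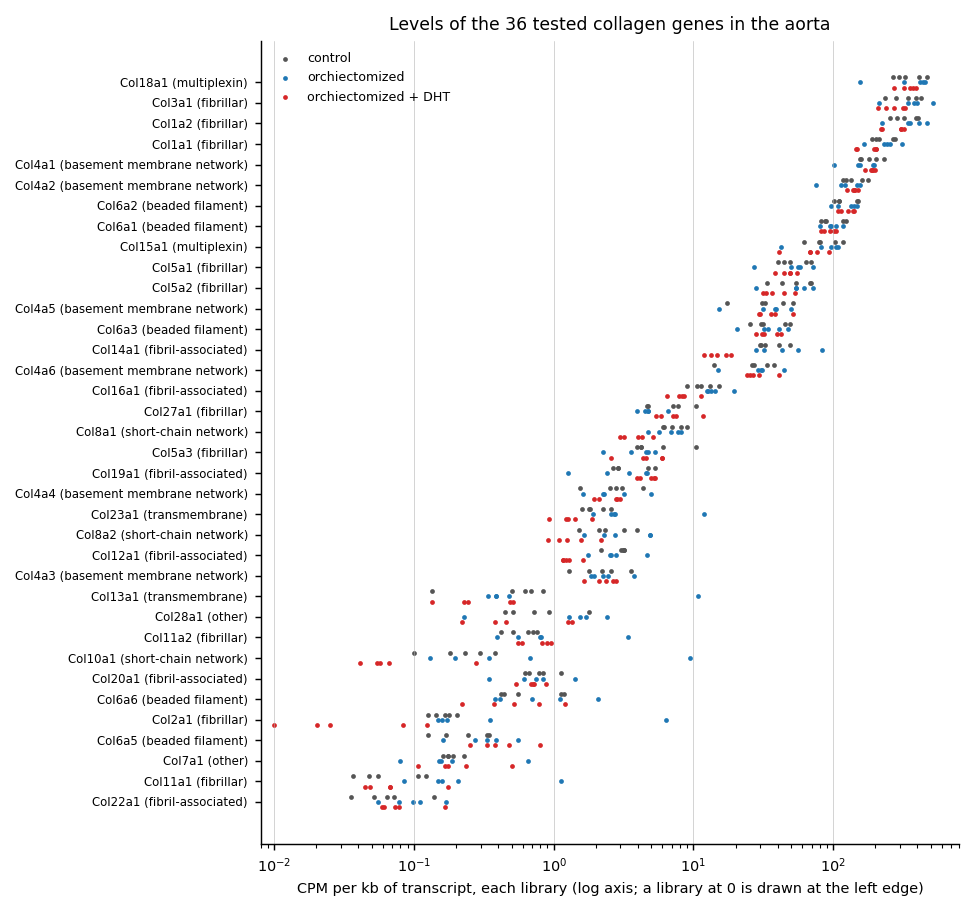
Levels of the 36 tested collagen genes, ordered by their mean over the 15 libraries. The horizontal log axis is CPM per kb of transcript and each point is 1 library, colored by group. The DHT-treated libraries of Col14a1 and Col12a1 lie left of all others, and orchiectomized replicate 2 gives the isolated blue points to the right for Col23a1, Col13a1, Col10a1, Col2a1 and Col11a1.

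The 3 comparisons gave different counts of called genes, where a call is an unadjusted P value under 0.01 in the quasi-likelihood test of edgeR fitted to all genes. DHT-treated against orchiectomized mice asks what DHT changed after orchiectomy. In it, 10 of the 36 collagen genes (27.8%) were lower, against 7.35% of all genes tested, and none was higher (2.44% of all genes). The calls of *Col11a1*, *Col2a1* and *Col10a1* are no support for the count of 10, since at most 1 DHT-treated library of each reached 10 counts and they passed the filter mainly or in part through the orchiectomized group. At an unadjusted P value under 0.05, edgeR called 1 collagen gene higher, and DESeq2 called none higher at 0.01. Of the 10, 7 had an adjusted P value under 0.05, which 4.82% of all genes had in either direction. The median log2 fold change of the 36 was -0.28, against -0.02 over all genes, and 28 of the 36 were below 0, as were 7554 of the 14191 genes. Without orchiectomized replicate 2, 8 collagen genes were lower (5.29% of all genes) and 1, *Col27a1*, was higher (3.11% of all genes). Of the 10, *Col14a1*, *Col12a1*, *Col16a1*, *Col8a1*, *Col23a1* and *Col2a1* kept their call without that library.

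In orchiectomized against control mice, 3 collagen genes were higher, *Col2a1*, *Col10a1* and *Col11a1* (8.33% of the 36, against 2.11% of all genes), and none was lower (1.12% of all genes). *Col11a1* passed the filter through 4 orchiectomized libraries and 1 with DHT, while no control library reached 10 counts, so its call is no support for the count. For lower genes edgeR also called none at an unadjusted P value under 0.05, and DESeq2 called none at 0.01. None of the 3 had an adjusted P value under 0.05, which held for 0% of all genes (1051 were higher and 648 lower at an unadjusted P value under 0.05), while DESeq2 gave 80 higher and 58 lower genes such an adjusted P value. Without orchiectomized replicate 2 no collagen gene was higher at 0.01 by edgeR (0.881% of all genes) and 2 were at 0.05. In DHT-treated against control mice, which share their DHT-treated libraries with the first comparison, 3 collagen genes were lower, *Col14a1*, *Col12a1* and *Col8a1* (8.33%, against 2.01% of all genes), and none was higher (1.53% of all genes) by edgeR or DESeq2 at 0.01, with 1 at 0.05 by each. *Col12a1* alone had an adjusted P value under 0.05 by edgeR, as had 0.261% of all genes, while 3 collagen genes had one by DESeq2. Without orchiectomized replicate 2 edgeR gave 3, *Col12a1*, *Col14a1* and *Col8a1*. Without orchiectomized replicate 2 the fit called 4 lower (2.53% of all genes), with *Col23a1* added.

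**Figure D2:**
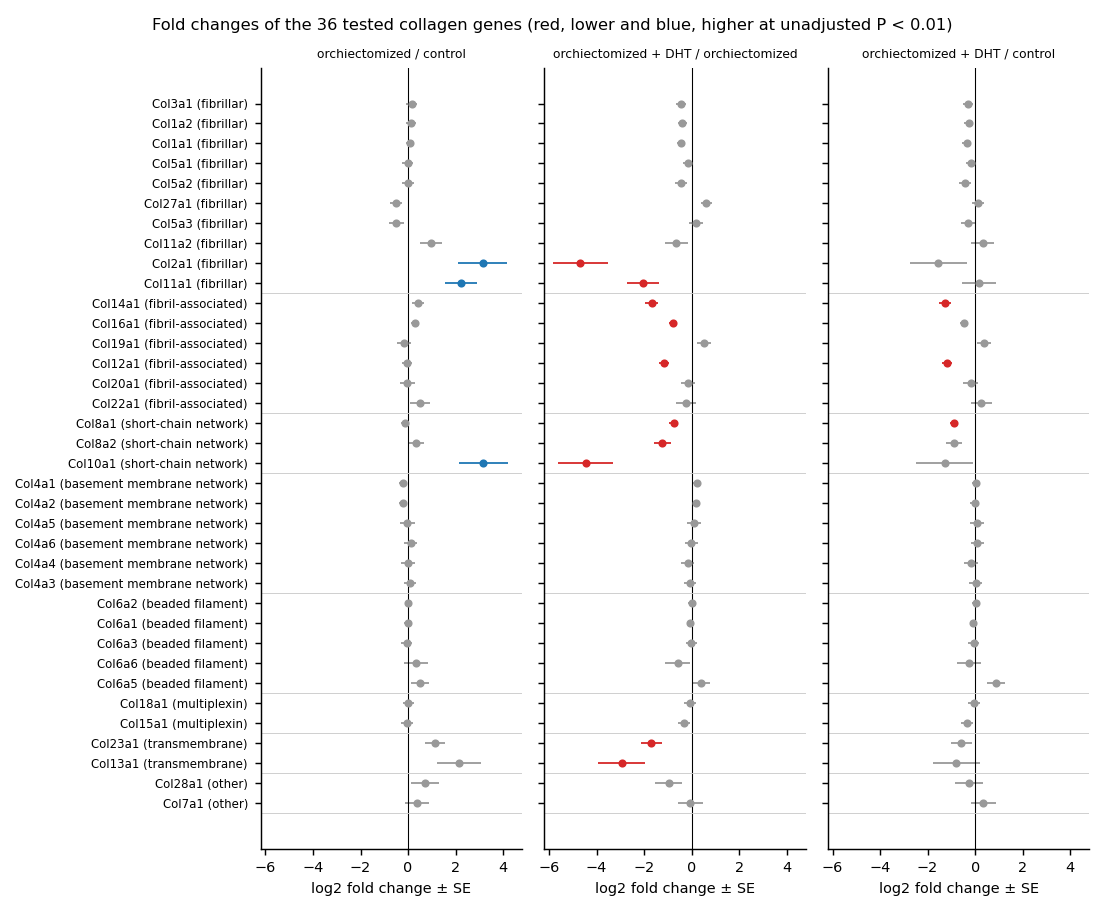
Log2 fold changes of the 36 tested collagen genes in the 3 comparisons, in class order. The horizontal axis is the log2 fold change, points are the edgeR estimates and bars their standard errors. In the middle panel the fibril-associated chains Col14a1, Col12a1 and Col16a1 and the short-chain gene Col8a1 are lower, as are Col8a2 and Col10a1, which lose their calls without orchiectomized replicate 2, while the type IV chains and Col6a1, Col6a2 and Col6a3 lie near 0, and the widest bars belong to the low genes that orchiectomized replicate 2 dominated.

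Of the 6 fibril-associated chains tested, 3 were lower with DHT than in orchiectomized mice (7.35% of all genes). Of these, 2 were lower than in control mice (2.01% of all genes). *Col14a1* encodes undulin, which binds fibril surfaces and regulates fibril diameter. In replicate order it measured 196, 209, 192, 318 and 266 CPM in the control libraries, 279, 182, 536, 363 and 208 in the orchiectomized libraries and 119.6, 111, 86.3, 95.8 and 77.1 in the libraries with DHT. All 5 DHT-treated libraries lay below all 10 others, and the spread was widest in the orchiectomized group. *Col14a1* was lower with DHT than in orchiectomized mice (log2 fold change -1.68 ± 0.26 SE, adjusted P = 0.00655) and than in control mice (log2 fold change -1.27 ± 0.26 SE, adjusted P = 0.0553), and the difference between orchiectomized and control mice missed the threshold (log2 fold change 0.41 ± 0.26 SE, adjusted P = 0.527).

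*Col12a1* encodes the long chain of type XII collagen, which links type I fibrils and rises under tensile load. It measured 25.2, 36.1, 34.8, 36.5 and 36.5 CPM in the control libraries, 29.1, 29.7, 53.9, 32.3 and 20.3 in the orchiectomized libraries and 14.1, 14.8, 13.5, 18.6 and 13.3 in the libraries with DHT. The DHT-treated libraries again lay below all others, with 14.9 ± 2.19 CPM (mean ± SD, n = 5) against 33.04 ± 12.5 in orchiectomized and 33.8 ± 4.88 in control mice. It was lower with DHT than in orchiectomized mice (log2 fold change -1.15 ± 0.21 SE, adjusted P = 0.0111) and in control mice (log2 fold change -1.19 ± 0.21 SE, adjusted P = 0.0341). Control and orchiectomized mice differed by -0.03 on the log2 scale (adjusted P = 0.96), less than the spread within either group.

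*Col16a1*, a chain that joins fibrils to other matrix, measured 46.8, 67.9, 54.97, 79.4 and 58.7 CPM in the control libraries, 66.3, 64.97, 102, 74.5 and 70.1 in the orchiectomized libraries and 44.8, 58.5, 43.3, 33.6 and 41.3 in the libraries with DHT. The DHT-treated libraries did not overlap the orchiectomized ones and overlapped the control ones. It was lower with DHT than in orchiectomized mice (log2 fold change -0.77 ± 0.17 SE, adjusted P = 0.0236), and the difference from control mice missed the threshold in edgeR (log2 fold change -0.47 ± 0.17 SE, adjusted P = 0.318) and passed it in DESeq2 and in edgeR without control replicate 1, orchiectomized replicate 3 or DHT-treated replicate 2. Of the other fibril-associated genes tested, *Col19a1*, *Col20a1* and *Col22a1*, none was called in any comparison, and *Col19a1* had a log2 fold change above 0 with DHT (0.52 ± 0.30 SE against orchiectomized mice, adjusted P = 0.333). Over all 36 collagen genes, 5 had DHT-treated libraries wholly below the orchiectomized ones (*Col12a1*, *Col14a1*, *Col16a1*, *Col23a1* and *Col2a1*), where 7.35% of all genes were called lower and 4.38% had such groups. None lay wholly above, where 2.05% of all genes did. *Col2a1* is no support for the count of 5, since no DHT-treated library of it reached 10 counts. It passed the filter through control and orchiectomized libraries.

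**Figure D3:**
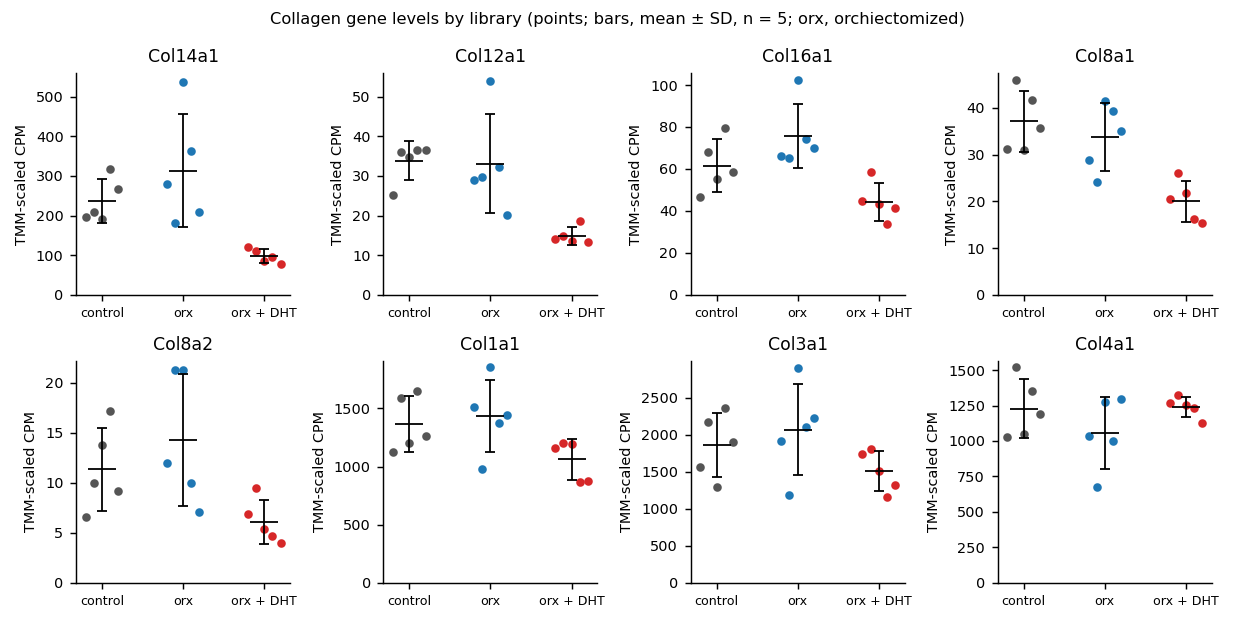
TMM-scaled CPM of 8 collagen genes in each library, with the vertical axis starting at 0, points for libraries and bars for the mean ± SD of 5. For Col14a1 and Col12a1 the DHT-treated libraries (77.1 to 119.6 and 13.3 to 18.6 CPM) lie below all others, for Col1a1 and Col3a1 the groups overlap, and for Col4a1 the DHT-treated libraries (1125 to 1323 CPM) lie inside the control range (1025 to 1520.4 CPM).

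Fibroblast markers moved in the same comparison, where 7.35% of all genes were called lower and 2.44% higher. With DHT against orchiectomized mice, 5 of 10 fibroblast markers were lower (*Dpt*, *Cd34*, *Lum*, *Gsn* and *Mfap5*) and 1 was higher (*Dpep1*). *Cd34* (adjusted P = 0.091), *Gsn* (adjusted P = 0.102) and *Dpep1* (adjusted P = 0.054) were called by the unadjusted P value only. The sum of the 10 ranged from 4005 to 5293 CPM in control, 3912 to 6126 in orchiectomized and 3019 to 5041 in DHT-treated mice (orchiectomized maximum 5826 without replicate 2). *Lum*, lumican, a small proteoglycan that binds fibrils, fell most (log2 fold change -1.90 ± 0.27 SE, adjusted P = 0.00362). *Pdgfra* (log2 fold change -0.67 ± 0.26 SE, adjusted P = 0.146) and *Dcn* (log2 fold change -0.46 ± 0.22 SE, adjusted P = 0.239), both broad fibroblast genes, missed the threshold. All 7 mesothelial markers were lower, and their sum was 35.5 to 99.1 CPM in control, 48.8 to 383 in orchiectomized and 8.85 to 24.4 in DHT-treated mice, with an orchiectomized maximum of 92.4 without replicate 2. Of 8 endothelial markers, *Pecam1*, *Tek* and *Vwf* were lower, with sums of 871 to 1274 CPM in control, 1010.0 to 1475 in orchiectomized and 749 to 956 in DHT-treated mice (orchiectomized maximum 1129 without replicate 2). None of 8 smooth muscle markers was called in edgeR at 0.01, and their sum was 14300.0 to 20520.0 CPM in control, 11190.0 to 20710.0 in orchiectomized and 20150.0 to 25030.0 in DHT-treated mice, with an orchiectomized minimum of 14310.0 without replicate 2. In DHT-treated against control mice, 3 of 10 fibroblast (*Lum*, *Pi16* and *Mfap5*) and 3 of 8 endothelial markers (*Pecam1*, *Tek* and *Vwf*) were lower (2.01% of all genes). So were 6 of 7 mesothelial markers. No marker of these lists was higher (1.53% of all genes), and no smooth muscle marker was called.

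Blood cell and neighboring tissue markers also differed between DHT-treated and orchiectomized mice (7.35% of all genes lower and 2.44% higher). All 9 T and B cell markers and 4 of 8 macrophage markers (*Lyz2*, *Adgre1*, *Cd14* and *Csf1r*) were lower with DHT than in orchiectomized mice, and the sums were 5.99 to 15.3 CPM in control, 10.1 to 162 in orchiectomized and 3.59 to 14.3 in DHT-treated mice for the former and 358 to 915 CPM in control, 612 to 1461 in orchiectomized and 334 to 643 in DHT-treated mice for the latter. Skeletal muscle markers were higher for 4 of 8 (*Myh2*, *Myh1*, *Mylpf* and *Acta1*), with sums of 41.3 to 501 CPM in control, 10.8 to 185 in orchiectomized and 79.8 to 463 in DHT-treated mice. For adipocytes, 1 of 8 was higher (*Plin4*), with sums of 2399 to 6024 CPM in control, 2698 to 4473 in orchiectomized and 2588 to 5327 in DHT-treated mice, and none of 8 Schwann cell markers was called, with sums of 301 to 467 CPM in control, 332 to 753 in orchiectomized and 293 to 654 in DHT-treated mice. Of the markers lower with DHT, *Cd4* and the 4 macrophage markers had adjusted P values above 0.05. In orchiectomized against control mice 8 of the 9 T and B cell markers were higher (2.11% of all genes), and *Myh4*, *Mylpf* and *Lep* were lower (1.12% of all genes). Of the blood cell, skeletal muscle, adipocyte and Schwann cell markers, *Myh2* alone was called in DHT-treated against control mice, and it was higher (1.53% of all genes). Without replicate 2, the highest sums in orchiectomized mice were 78.2 CPM for T and B cells, 853 for macrophages, 59.2 for skeletal muscle and 577 for Schwann cells. The part of these cells in the collagen differences was not tested.

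Of the 3 short-chain genes, all were called lower with DHT than in orchiectomized mice (7.35% of all genes), and *Col8a1* alone kept its call without orchiectomized replicate 2. The call of *Col10a1* is no support for the count of 3. No DHT-treated library of it reached 10 counts, and it passed the filter in part through the orchiectomized group. *Col8a1* and *Col8a2* encode the chains of type VIII collagen, a hexagonal network made by endothelial and smooth muscle cells. *Col8a1* measured 31.3, 45.9, 30.98, 41.8 and 35.7 CPM in the control libraries, 28.9, 24.05, 41.6, 39.4 and 35.1 in the orchiectomized libraries and 20.5, 26.03, 21.8, 16.2 and 15.3 in the libraries with DHT. The DHT-treated libraries lay below every control library and overlapped the lowest orchiectomized one, replicate 2. *Col8a1* was lower with DHT than in orchiectomized mice (log2 fold change -0.76 ± 0.18 SE, adjusted P = 0.0299) and in control mice (log2 fold change -0.89 ± 0.18 SE, adjusted P = 0.0515).

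*Col8a2* measured 6.61, 10.02, 13.8, 17.2 and 9.21 CPM in the control libraries, 11.95, 21.3, 21.3, 9.96 and 7.08 in the orchiectomized libraries and 6.84, 9.46, 5.39, 4.69 and 3.93 in the libraries with DHT. The groups overlapped. *Col8a2* was lower with DHT than in orchiectomized mice (log2 fold change -1.23 ± 0.34 SE, adjusted P = 0.0536), and it missed the threshold without orchiectomized replicate 3 and without replicate 2 (for the latter, log2 fold change -1.03 ± 0.35 SE, adjusted P = 0.119). Against control mice it was not called (log2 fold change -0.90 ± 0.34 SE, adjusted P = 0.348), but it was without control replicate 1 or DHT-treated replicate 2. *Col10a1*, the short-chain collagen of hypertrophic cartilage, is described with the cartilage-type genes.

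Promoter windows, the 250 bases before a gene's start, were taken from the RefSeq promoter table (GRCm38.p6), which matched 35 of the 44 collagen symbols (38 windows). Of the 10 called genes, *Col14a1*, *Col12a1* and *Col2a1* had no window, and the windows of *Col10a1*, *Col11a1*, *Col13a1* and *Col23a1* entered the counts below and are not printed. The windows of *Col16a1*, *Col8a1* and *Col8a2*, the called chains with a window that orchiectomized replicate 2 did not dominate, follow, in gene orientation, with matches to the searched motifs in capitals.
Col16a1 promoter, chr4:130047590-130047839 (+): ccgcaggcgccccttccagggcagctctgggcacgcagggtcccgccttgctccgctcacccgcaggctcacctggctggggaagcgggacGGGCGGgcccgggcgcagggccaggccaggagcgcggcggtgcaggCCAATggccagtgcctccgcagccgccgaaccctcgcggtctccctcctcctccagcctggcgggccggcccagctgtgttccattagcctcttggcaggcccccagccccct
Col8a1 promoter, chr16:57754738-57754987 (-): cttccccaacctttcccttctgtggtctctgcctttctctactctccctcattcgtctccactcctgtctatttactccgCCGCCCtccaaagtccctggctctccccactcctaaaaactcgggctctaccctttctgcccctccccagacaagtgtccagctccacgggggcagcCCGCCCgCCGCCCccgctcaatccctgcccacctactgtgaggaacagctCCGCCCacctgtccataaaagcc
Col8a2 promoter, chr4:126286544-126286793 (+): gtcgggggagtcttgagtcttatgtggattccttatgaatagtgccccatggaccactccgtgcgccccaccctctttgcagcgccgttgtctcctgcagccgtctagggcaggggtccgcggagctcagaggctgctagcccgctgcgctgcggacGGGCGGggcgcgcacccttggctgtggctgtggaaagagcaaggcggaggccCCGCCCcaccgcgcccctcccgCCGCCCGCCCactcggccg
The motifs searched on both strands were the GC box GGGCGG, the CCAAT box CCAAT, the TATA box TATAAA and TGTTCT, the core hexamer of androgen receptor sites. The matches in the windows of *Col8a1* and *Col8a2* were all GC boxes, 4 in each, and in *Col8a2* a pair of them overlapped. *Col16a1* held 1 GC box and 1 CCAAT box. None held TGTTCT or TATAAA in these 250 bases. Of the 38 collagen windows, 57.9% held a GC box, against 32.7% of all 32851 windows, and 5.26% held TGTTCT, against 16.1% of all windows. The shares were 34.2% and 33.8% for the CCAAT box and 13.2% and 12.4% for the TATA box. These matches describe letters, not binding.

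The major fibrillar chains had lower means with DHT, but none was called in the full set. *Col1a1* and *Col1a2*, which form the type I trimer, measured in turn 1126, 1592, 1199, 1651 and 1264 CPM in the control libraries, 1516, 983, 1857, 1378 and 1443 in the orchiectomized libraries and 1163, 1204, 1195, 866 and 874 in the libraries with DHT for *Col1a1*, and 1537, 2098, 1366, 2177 and 1713 CPM in the control libraries, 2209, 1201, 2521, 1826 and 1887 in the orchiectomized libraries and 1641, 1716, 1631, 1188 and 1172 in the libraries with DHT for *Col1a2*. *Col3a1*, the chain of the extensible type III fibrils, measured 1557, 2176, 1296, 2356 and 1897 CPM in the control libraries, 1908, 1188, 2904, 2105 and 2223 in the orchiectomized libraries and 1745, 1802, 1505, 1156 and 1326 in the libraries with DHT. The groups overlapped for all 3 genes, and orchiectomized replicate 2 was among the 3 lowest of the 15 libraries for each of them. With DHT against orchiectomized mice the log2 fold changes were -0.44 ± 0.17 SE for *Col1a1* (adjusted P = 0.163), -0.39 ± 0.20 for *Col1a2* (adjusted P = 0.273) and -0.46 ± 0.22 for *Col3a1* (adjusted P = 0.255). Without replicate 2, *Col1a1* (log2 fold change -0.53 ± 0.16 SE, adjusted P = 0.0826) and *Col3a1* (log2 fold change -0.59 ± 0.20 SE, adjusted P = 0.116) passed the unadjusted threshold, and *Col1a2* (log2 fold change -0.51 ± 0.17 SE, adjusted P = 0.124) was just outside it.

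Type V chains sit inside type I fibrils and start their assembly. *Col5a1* measured 374, 539.5, 338, 579.6 and 411 CPM in the control libraries, 473, 229, 603, 423 and 485 in the orchiectomized libraries and 461, 410.3, 372, 412 and 321 in the libraries with DHT. *Col5a2* measured 287, 458, 222, 451 and 360.4 CPM in the control libraries, 359.5, 186, 476, 358 and 412 in the orchiectomized libraries and 352, 297, 220.3, 242 and 210.0 in the libraries with DHT. Neither was called in any comparison, and with DHT against orchiectomized mice the log2 fold changes were -0.16 ± 0.22 SE for *Col5a1* (adjusted P = 0.72) and -0.44 ± 0.25 for *Col5a2* (adjusted P = 0.324). Of the minor fibrillar genes, *Col27a1*, a fibrillar chain with a shorter helix, was the only collagen gene above 0 at an unadjusted P value under 0.05 in this comparison (log2 fold change 0.62 ± 0.24 SE, adjusted P = 0.154), and it passed 0.01 without orchiectomized replicate 2 (log2 fold change 0.76 ± 0.25 SE, adjusted P = 0.111). *Col5a3* was not called.

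The basement membrane chains showed no called difference. *Col4a1* and *Col4a2*, which form the common type IV trimer, lie head to head on chromosome 8, and their annotated 5′ ends share 22 bases, where reads cannot be assigned without strand. *Col4a1* measured 1025, 1520.4, 1051, 1349 and 1193 CPM in the control libraries, 1033, 672, 1278, 997 and 1296 in the orchiectomized libraries and 1268, 1323, 1254, 1229 and 1125 in the libraries with DHT. *Col4a2* measured 763, 1141, 795, 1038 and 868 CPM in the control libraries, 785, 482, 1008, 736 and 955 in the orchiectomized libraries and 924, 977, 896, 909 and 816 in the libraries with DHT. The DHT-treated libraries lay within the range of the control ones, and orchiectomized replicate 2 was the lowest of all 15 for both. With DHT against orchiectomized mice the log2 fold changes were 0.23 ± 0.17 SE for *Col4a1* (adjusted P = 0.451) and 0.19 ± 0.18 for *Col4a2* (adjusted P = 0.576). *Col4a3*, *Col4a4*, *Col4a5* and *Col4a6*, the chains of specialized membranes, had log2 fold changes between -0.18 and 0.12 across the 3 comparisons. None of the 6 type IV genes was called by edgeR in any comparison.

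None of the 5 beaded filament chains tested was called by edgeR in any comparison. *Col6a1* measured 336, 478, 365, 509 and 360.5 CPM in the control libraries, 388, 328, 483, 397 and 429 in the orchiectomized libraries and 429.9, 416, 389, 349.9 and 335 in the libraries with DHT. *Col6a2* measured 468, 699, 516, 689 and 514 CPM in the control libraries, 656, 447, 689.7, 504 and 619.7 in the orchiectomized libraries and 643, 597, 651, 533 and 505 in the libraries with DHT. *Col6a3*, the long chain of the type VI trimer, measured 255, 459.9, 306, 496 and 316 CPM in the control libraries, 324, 208, 479.7, 343 and 412 in the orchiectomized libraries and 427, 403, 314, 324 and 284 in the libraries with DHT. The groups overlapped throughout, and with DHT against orchiectomized mice the differences were -0.08 ± 0.14 SE, 0.01 ± 0.15 and -0.01 ± 0.22 on the log2 scale for *Col6a1*, *Col6a2* and *Col6a3*, and all 3 signs turned in at least 1 other processing of the data. *Col6a5* had the largest estimate above 0 in DHT-treated against control mice (log2 fold change 0.88 ± 0.38 SE, adjusted P = 0.39), from 1.18 to 7.39 CPM across libraries, and was not called. *Col6a6*, at 1.92 to 18.3 CPM, was not called either.

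The multiplexins were also not called. *Col18a1* measured 1826, 2604, 1498, 2298 and 1667 CPM in the control libraries, 2555, 869, 2336, 1790.4 and 2459 in the orchiectomized libraries and 2176, 1998, 2100.2, 1811 and 1535 in the libraries with DHT. *Col15a1*, its relative in the membranes of muscle and capillaries, measured 411, 609.9, 322, 534 and 418 CPM in the control libraries, 539.6, 219, 563, 427 and 501 in the orchiectomized libraries and 481, 352, 354, 398 and 213 in the libraries with DHT. Orchiectomized replicate 2 was the lowest of all 15 libraries for *Col18a1* and the groups overlapped for both genes. With DHT against orchiectomized mice the log2 fold changes were -0.06 ± 0.25 SE for *Col18a1* (adjusted P = 0.926) and -0.32 ± 0.26 for *Col15a1* (adjusted P = 0.502).

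The makeup of the collagen reads within a library does not depend on how libraries are scaled. The type IV share of collagen reads was 20.5, 20.9, 20.7, 19.8 and 20.9% in control libraries, 16.6, 17.5, 17.8, 17.97 and 19.4% in orchiectomized libraries and 22.5, 22.6, 22.04, 25.5 and 24.8% with DHT. The 3 groups did not overlap, and the orchiectomized libraries, replicate 2 included, were the lowest and the DHT-treated ones the highest. The fibrillar share was 44.9% to 47.96% in control, 46.3% to 50.2% in orchiectomized and 39.02% to 44.6% in DHT-treated libraries, and the latter lay below both other groups. The fibril-associated share was 2.20% to 3.17%, 2.30% to 4.27% and 1.46% to 1.72% in the same order, and the short-chain share 0.357% to 0.449%, 0.303% to 0.946% and 0.207% to 0.289%, both again lowest with DHT without overlap. Beaded filament chains took 9.83% to 11.9%, 9.97% to 12.5% and 11.6% to 12.04%, and multiplexins 17.4% to 20.8%, 13.7% to 22.6% and 18.6% to 21.6%. Shares add up to the whole, so a class can gain share because another lost reads, and these shares, noticed after the values were seen, were not tested.

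No ratio of paired chains passed its test after adjustment. The mean log2 ratio of *Col1a1* to *Col1a2* counts was -0.37 ± 0.11 (SD, n = 5) in control, -0.41 ± 0.092 in orchiectomized and -0.47 ± 0.036 in DHT-treated libraries. That of *Col4a1* to *Col4a2* was 0.42 ± 0.030, 0.42 ± 0.052 and 0.46 ± 0.020, the tightest of the 4 ratios. *Col3a1* to *Col1a1* gave 0.43 ± 0.18, 0.50 ± 0.18 and 0.50 ± 0.12, and *Col6a1* to *Col6a2* gave -0.49 ± 0.041, -0.52 ± 0.15 and -0.61 ± 0.081. In 12 exact two-sided permutation tests over libraries, the smallest P values were 0.0159 (*Col6a1* to *Col6a2*, DHT-treated minus control, difference -0.11), 0.0397 (*Col4a1* to *Col4a2*, 0.04) and 0.0476 (*Col1a1* to *Col1a2*, -0.09), all between DHT-treated and control mice. Adjusted over the 12 tests each of the 3 was 0.19. The smallest P value that 5 against 5 libraries can reach is 0.00794 before adjustment. A single test at that value would stay above 0.05 after adjustment over the 12, so no ratio could have passed on its own.

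**Figure D4:**
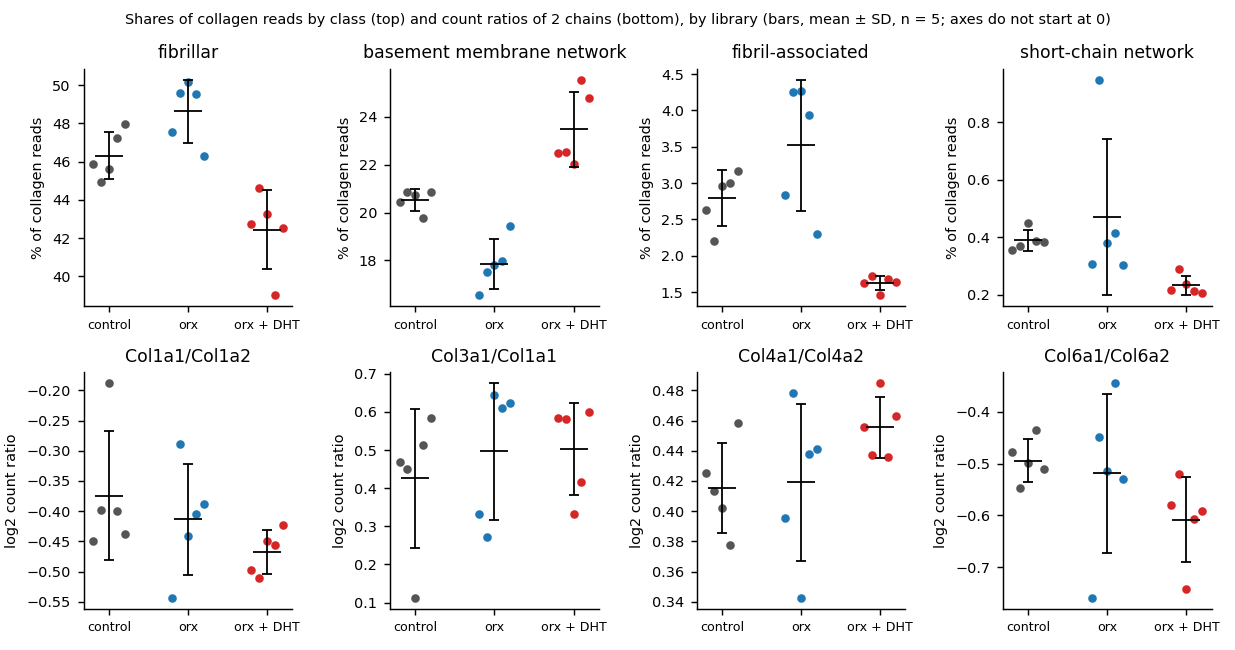
Top, percent of collagen reads in 4 collagen classes, and bottom, log2 count ratio of 4 chain pairs, each by group, with points for libraries and bars for the mean ± SD of 5 (vertical axes do not start at 0). The type IV share separates the 3 groups, from 16.6% to 19.4% in orchiectomized to 22.04% to 25.5% in DHT-treated libraries, while the ratios overlap between groups.

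The calls of the cartilage-type chains rested largely on orchiectomized replicate 2. *Col2a1*, the main cartilage fibril chain, had 10, 11, 7, 12 and 7 counts in the control libraries, 7, 370, 10, 26 and 10 in the orchiectomized libraries and 5, 7, 1, 0 and 1 with DHT. *Col10a1* had 8, 10, 3, 8 and 13 counts in the control, 10, 336, 7, 31 and 5 in the orchiectomized and 2, 2, 1, 7 and 2 in the DHT-treated libraries. *Col11a1*, a partner of *Col2a1*, had 9, 3, 9, 6 and 4 counts in the control, 6, 98, 13, 23 and 15 in the orchiectomized and 4, 15, 4, 3 and 5 in the DHT-treated libraries. In all 3 genes replicate 2 was far above the rest, and the other libraries of the 3 groups overlapped in part. Replicate 2 was 18.3-fold, 13.9-fold and 5.48-fold above the next highest library in CPM for these 3 genes. The calls against control mice (log2 fold change 3.13 ± 1.03 SE, adjusted P = 0.302 for *Col2a1*) were gone without it (log2 fold change 0.35 ± 0.48 SE, adjusted P = 0.878).

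*Col2a1* also differed with DHT without that library. Its DHT-treated libraries held at most 7 counts, and the other 4 orchiectomized libraries 7 to 26, and the log2 fold change was -4.68 ± 1.17 SE with replicate 2 (adjusted P = 0.0348) and -1.89 ± 0.55 without it (adjusted P = 0.0784). No DHT-treated library reached the 10 counts of the filter. For *Col10a1* the values were -4.46 ± 1.16 (adjusted P = 0.041) and -1.80 ± 0.62 (adjusted P = 0.124), and for *Col11a1* -2.06 ± 0.68 (adjusted P = 0.0943) and -0.86 ± 0.46 (adjusted P = 0.31). *Col11a2* followed replicate 2 as well (20.5 CPM, 2.37 to 5.80 elsewhere) and was not called. Of the 5 chondrocyte markers tested among 8, *Epyc* and *Comp* were lower with DHT than in orchiectomized mice (7.35% of all genes) and *Hapln1* was higher (2.44% of all genes). Against control mice *Epyc* was again lower and *Hapln1* higher. The sum of the 8 was 75.9 to 132 CPM in control, 108 to 174 in orchiectomized and 49.97 to 112 in DHT-treated mice (orchiectomized maximum 166 without replicate 2), and *Matn1* was at 0 in 10 libraries. The part of cartilage-like cells was not tested.

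Both transmembrane chains tested were called lower with DHT than in orchiectomized mice (7.35% of all genes), and *Col23a1* alone kept its call without orchiectomized replicate 2. *Col23a1* measured 10.1, 12.7, 9.07, 14.7 and 10.3 CPM in the control libraries, 15.4, 67.8, 14.6, 15.6 and 10.7 in the orchiectomized libraries and 6.93, 10.6, 5.26, 7.16 and 8.07 in the libraries with DHT. Apart from replicate 2, the orchiectomized libraries reached 15.6 CPM, and each of them lay above the DHT-treated ones. The call with DHT against orchiectomized mice (log2 fold change -1.70 ± 0.43 SE, adjusted P = 0.0381) remained without replicate 2 at a smaller size (log2 fold change -0.86 ± 0.20 SE, adjusted P = 0.0364), and without it the call extended to control mice (log2 fold change -0.57 ± 0.19 SE, adjusted P = 0.208). *Col13a1*, which takes part in the neuromuscular junction, had 24, 17, 19, 6 and 29 counts in control, 10, 383, 14, 22 and 15 in orchiectomized and 5, 8, 6, 13 and 15 in DHT-treated libraries, and its call (log2 fold change -2.94 ± 0.99 SE, adjusted P = 0.0996) was gone without replicate 2 (log2 fold change -0.32 ± 0.47 SE, adjusted P = 0.73).

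**Figure D5:**
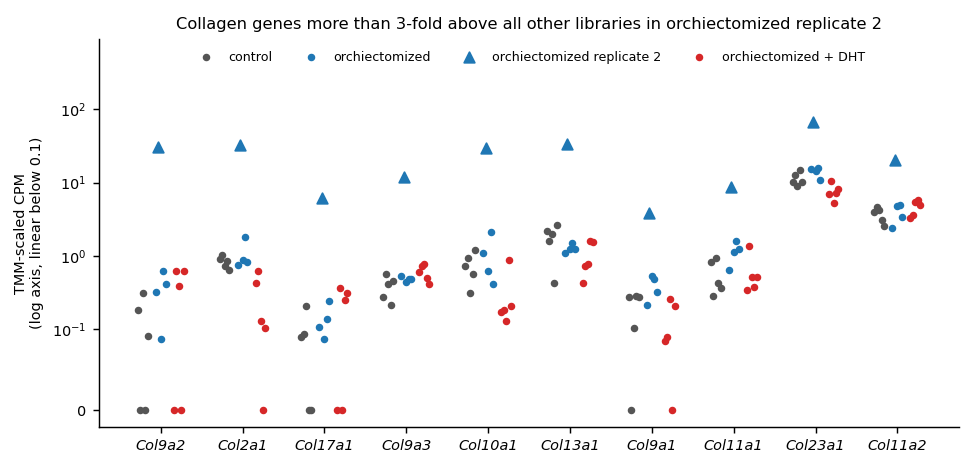
TMM-scaled CPM (log axis, linear below 0.1) of the 10 collagen genes for which orchiectomized replicate 2 (triangles) was more than 3-fold above every other library (circles, colored by group). For Col2a1 replicate 2 is at 32.7 CPM and the other 14 libraries at 1.79 or below, and without the triangles the DHT-treated points of Col2a1 and Col23a1 still lie below the orchiectomized ones.

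The filter left out 8 collagen genes. *Col9a1*, *Col9a2* and *Col9a3*, the chains of cartilage type IX, and *Col17a1*, an epithelial anchoring chain, reached 10 counts in 1 library each, orchiectomized replicate 2, with 44, 347, 136 and 69 counts, against at most 7, 9, 8 and 4 elsewhere. *Col24a1*, *Col25a1*, *Col26a1* and *Col6a4* reached 10 counts in no library and held at most 6, 9, 4 and 8. Just inside the filter were *Col10a1*, *Col11a1* and *Col22a1*, with 10 or more counts in 5 libraries. *Col7a1*, the anchoring fibril chain, and *Col28a1* were tested and not called, with levels of 0.733 to 6.01 and 0.941 to 10.3 CPM.

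Of 47 genes in 5 lists that modify, secrete, process and bind collagen, 45 were tested. None was called in orchiectomized against control mice by edgeR, at 0.01 (2.11% of all genes higher and 1.12% lower) or at an unadjusted P value under 0.05, or by DESeq2. With DHT against orchiectomized mice 3 were lower (6.67%, against 7.35% of all genes) and 1 was higher (2.22%, against 2.44%), shares close to those of all genes. In DHT-treated against control mice 3 were lower (6.67%, against 2.01% of all genes) and 1 was higher (2.22%, against 1.53%). The median log2 fold change of the 45 was -0.13 against orchiectomized mice. In the list of prolyl and lysyl hydroxylation and glycosylation, none of 15 was called against orchiectomized mice, and in DHT-treated against control mice *P4ha3*, a prolyl 4-hydroxylase subunit, was lower (log2 fold change -1.32 ± 0.44 SE, adjusted P = 0.276) at 0.128 to 1.98 CPM. None of the 9 folding and secretion genes, which include the chaperone *Serpinh1*, was called in any comparison.

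Among the 7 propeptide processing genes tested of 8, the direction was mixed. *Adamts14*, an N-propeptide protease, measured 5.71, 10.3, 6.05, 9.84 and 5.66 CPM in the control libraries, 5.17, 6.54, 6.90, 5.56 and 7.33 in the orchiectomized libraries and 12.2, 21.3, 16.9, 14.8 and 18.4 in the libraries with DHT. All 5 DHT-treated libraries lay above all others, and it was higher than in orchiectomized (log2 fold change 1.41 ± 0.21 SE, adjusted P = 0.00515) and control mice (log2 fold change 1.15 ± 0.21 SE, adjusted P = 0.036). *Pcolce2*, an enhancer of C-propeptide removal, was lower than in orchiectomized (log2 fold change -1.08 ± 0.22 SE, adjusted P = 0.0169) and control mice (log2 fold change -0.76 ± 0.22 SE, adjusted P = 0.202).

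Of the 5 cross-linking genes, *Loxl2*, a lysyl oxidase, was lower with DHT than in orchiectomized (log2 fold change -0.43 ± 0.14 SE, adjusted P = 0.0841) and control mice (log2 fold change -0.60 ± 0.14 SE, adjusted P = 0.0901), at 39.2 to 53.1 CPM against 49.8 to 79.0 and 55.2 to 81.5 CPM. Of the 9 collagen receptor and uptake genes tested among 10, *Itga11*, the alpha subunit of a fibroblast receptor for fibrillar collagen, was lower with DHT than in orchiectomized mice (log2 fold change -0.80 ± 0.25 SE, adjusted P = 0.076), and its difference from control mice missed the threshold (log2 fold change -0.68 ± 0.25 SE, adjusted P = 0.321). *Ddr2*, the receptor kinase for fibrillar collagen, had a log2 fold change of -0.03 ± 0.22 SE (adjusted P = 0.966) with DHT against orchiectomized mice.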

How the data were processed

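Poly(A) RNA of 15 aortas, 1 mouse per library, was sequenced, with 5 mice in each of 3 groups taken from the sample labels. The authors deposited 1 file of counts for each library, with whole reads listed by gene symbol and not normalized. The submitters' processing notes name mm10, STAR, Cufflinks and DESeq2, while the counting program, the annotation and the use of strand are not given in the sources used here. Rows that name no gene were left out (6.26% to 14.4% of reads without a feature and 1.34% to 1.97% ambiguous). Genes with 10 or more counts in at least 5 libraries were tested with the quasi-likelihood test of edgeR 4.0.16 (R 4.3.3, TMM factors, all 15 libraries in 1 fit). A call is an unadjusted P value under 0.01, and Benjamini-Hochberg adjusted P values cover all 14191 genes tested. Ratios of chains were compared with exact permutation tests (scipy 1.17.1). Scripts were tested on simulated data. The alternatives were DESeq2 1.42.0, other normalizations and filters, only the groups compared, a replicate block, an adjusted threshold and leaving out each library. The members and lists were chosen with earlier results of these data known. Values in every library are given for each called collagen gene and for the main aortic chains, and called pathway genes are named.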

Additional observations from a re-analysis of the deposited data

Results flagged for a closer look

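In 15 of 120 groups of 5 libraries, over the collagen genes and ratios examined, the highest or lowest library stood apart from the other 4 by Dixon's test. Chance gives about 1 in 20 such groups. Orchiectomized replicate 2 was the high library for 7 of them. It held *Col10a1* at 29.7 CPM (next library of the group 2.13), *Col13a1* at 33.9 (1.51), *Col23a1* at 67.8 (15.6) and *Col2a1* at 32.7 (1.79). It also held *Col11a2* at 20.5 CPM (4.95), *Col11a1* at 8.66 (1.58) and *Col7a1* at 6.01 (1.75).

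DHT-treated replicate 4 was high for *Col10a1* (0.865 CPM, next 0.207), *Col22a1* (1.48, next 0.684) and *Col12a1* (18.65, next 14.8), and DHT-treated replicate 2 for *Col11a1* (1.35, next 0.517). *Col16a1* was high in orchiectomized replicate 3 (102 CPM, next 74.5). *Col12a1* was low in control replicate 1 (25.2 CPM, next 34.8). Control replicate 3 had the highest log2 ratio of *Col1a1* to *Col1a2* in its group (-0.19, next -0.40) and the lowest of *Col3a1* to *Col1a1* (0.11, next 0.45).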

How the results depend on the processing

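Of 16 called fold changes, 9 kept their call in each of the 22 alternatives that gave them a P value, 7 lost it in at least 1 and 0 reversed. The 22 leave out the adjusted threshold. Among the 9, *Col14a1* (adjusted P = 0.0553) and *Col8a1* (adjusted P = 0.0515) in DHT-treated against control mice missed that threshold. The 10 collagen genes lower with DHT than in orchiectomized mice became 7 to 11 over the alternatives, where the 11 include *Col9a1*, left out by the main filter. Of these calls, those of *Col13a1* and *Col11a1* ended in the most alternatives, that of *Col10a1* without orchiectomized replicate 2 and with the replicate block, and that of *Col8a2* without orchiectomized replicate 2 or 3. The default filter of edgeR left *Col2a1* untested. DESeq2 gave no P value for *Col2a1*, *Col10a1* and *Col13a1*. The 3 genes higher in orchiectomized than in control mice became 6 with every gene that had at least 1 count. The added *Col17a1*, *Col9a2* and *Col9a3* reached 10 counts in orchiectomized replicate 2 alone. The 3 became 0 with only the groups compared, 0 at the adjusted threshold and 0 to 4 when a library was left out. The count was 0 without orchiectomized replicate 2 and also without control replicate 2, 4 or 5, and 1 without control replicate 1 or 3 or DHT-treated replicate 1, 3 or 5. The 3 genes lower with DHT than in control mice became 1 at the adjusted threshold and 3 to 5 when a library was left out (5 without control replicate 1 or DHT-treated replicate 2). Higher genes with DHT against orchiectomized mice were 0 to 1, the 1 being without orchiectomized replicate 2.

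With the replicate block, 0 genes were higher in orchiectomized than in control mice, and with DHT 7 were lower than in orchiectomized and 3 than in control mice. The numbers did not pair the samples, since correlations of same-numbered deviations ran from -0.463 to 0.46.

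With DHT against orchiectomized mice, leaving out a library gave log2 fold changes of -0.23 to 0.046 for *Col18a1*, -0.31 to 0.0011 for *Col5a1*, -0.13 to 0.023 for *Col6a1*, -0.061 to 0.10 for *Col6a2* and -0.14 to 0.15 for *Col6a3*. *Col6a2* was -0.067 with library size only. *Col6a3* was 0.016 with DESeq2, 0.016 with its size factors, 0.022 with every gene that had at least 1 count and 0.0070 with only the groups compared.

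Leaving out a library moved the log2 ratio of *Col1a1* to *Col1a2* to -0.070 to 0.0080 (orchiectomized minus control), -0.086 to -0.022 (DHT-treated minus orchiectomized) and -0.11 to -0.046 (DHT-treated minus control). For *Col3a1* to *Col1a1* the ranges were -0.0073 to 0.13, -0.050 to 0.049 and -0.00097 to 0.12 in the same order. *Col4a1* to *Col4a2* gave -0.011 to 0.023 for orchiectomized and 0.031 to 0.051 for DHT-treated minus control, and *Col6a1* to *Col6a2* gave -0.068 to 0.035 for orchiectomized minus control and -0.15 to -0.045 for DHT-treated minus orchiectomized. The causes were not tested. Genes near 10 counts, such as *Col2a1*, are limited by depth.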
